A study of Homo sapiens with 6 samples.

Results

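The genes described here are CEACAM1, CEACAM5 and CEACAM6, the trefoil peptides TFF1, TFF2 and TFF3, lysozyme (LYZ), the secretory mucin MUC2, the disulfide isomerase AGR2 and the mucin-like membrane protein PARM1. They were taken by gene symbol from the platform annotation of the arrays. Of these 10 genes 9 were measured, on 10 features, LYZ having a pair of them, out of 14884 genes and 53616 features in all. MUC2 had no feature named in the annotation used here and was not analysed here. They were compared between floating sphere cultures of SW480, a colorectal cancer line from a primary tumour, and of SW620, a line from a lymph node metastasis. Both lines were grown without serum and with growth factors, with no other treatment or genetic change in the labels, and 3 arrays were run per line. The design text calls the 3 arrays technical replicates, so p-values measure the spread between such arrays and not between separate cultures, and each group stands for 1 established cell line. Such spheres are grown to favour tumour-initiating cells, and the study asked how that compartment differs between the lines. No adherent culture and no sorted fraction was among the arrays.

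CEACAM proteins are immunoglobulin-family adhesion molecules of the cell surface. CEACAM5, the carcinoembryonic antigen measured in the blood of patients with colorectal cancer, and CEACAM6 are held in the membrane by a glycosylphosphatidylinositol (GPI) anchor, whereas CEACAM1 spans the membrane and can carry an inhibitory signalling tail. Trefoil peptides are small, disulfide-rich proteins that mucus-secreting cells release together with mucins and that help to repair the gut lining. Goblet cells make MUC2, TFF3 and AGR2, an endoplasmic reticulum protein needed to fold MUC2, while TFF1 and TFF2 are best known from the stomach and LYZ, which cuts bacterial cell walls, from Paneth cells and macrophages.

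The CEACAM promoters are shown first. Among CEACAM genes of chromosome 19 with related upstream sequences, CEACAM5 and CEACAM6 were higher in SW620 and CEACAM1 was lower. CEACAM7, dim in both lines, was not called different. A link between these sequences and the differences was not tested. The 250 bases before the start of each gene are given 5′ to 3′ from RefSeq (build GRCh38.p14). CEACAM5 lies at chr19:41708376-41708625 on the plus strand, CEACAM6 at chr19:41755280-41755529 on the plus strand, CEACAM1 at chr19:42528482-42528731 on the minus strand, and CEACAM7 at chr19:41688271-41688520 on the minus strand, the window most like that of CEACAM5. Capitals mark the E-box letters CACGTG of CEACAM5 and CEACAM6 and the bases aligned with them in the other genes.
CEACAM5: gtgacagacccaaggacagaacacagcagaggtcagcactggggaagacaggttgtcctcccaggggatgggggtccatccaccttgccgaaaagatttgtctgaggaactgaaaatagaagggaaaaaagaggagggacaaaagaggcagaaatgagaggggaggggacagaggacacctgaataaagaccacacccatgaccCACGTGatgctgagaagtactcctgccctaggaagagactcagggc
CEACAM6: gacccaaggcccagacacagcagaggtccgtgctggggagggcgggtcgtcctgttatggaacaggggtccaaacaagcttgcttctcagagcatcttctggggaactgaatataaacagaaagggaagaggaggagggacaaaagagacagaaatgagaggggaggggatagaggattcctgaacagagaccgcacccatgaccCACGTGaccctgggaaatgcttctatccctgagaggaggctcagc
CEACAM7: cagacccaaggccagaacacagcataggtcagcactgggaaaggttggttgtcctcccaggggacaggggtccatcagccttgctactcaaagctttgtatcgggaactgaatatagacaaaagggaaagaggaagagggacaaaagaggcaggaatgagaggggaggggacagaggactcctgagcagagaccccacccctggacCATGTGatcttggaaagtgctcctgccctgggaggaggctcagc
CEACAM1: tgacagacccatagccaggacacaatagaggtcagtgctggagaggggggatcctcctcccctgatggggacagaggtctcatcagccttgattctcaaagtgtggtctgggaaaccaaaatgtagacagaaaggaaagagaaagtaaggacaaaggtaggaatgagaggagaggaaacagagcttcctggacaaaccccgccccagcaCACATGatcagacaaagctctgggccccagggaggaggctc

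In a global alignment, the upstream windows of CEACAM5 and CEACAM6 were identical at 190 of 242 aligned bases (78.5%). Those of CEACAM5 and CEACAM1 were identical at 170 of 236 (72.0%), and those of CEACAM5 and CEACAM7 at 206 of 244 (84.4%). The windows of CEACAM3 and CEACAM6 were identical at 188 of 229 (82.1%). Of the 10 CEACAM genes with a window in the table, CEACAM5 and CEACAM6 held CACGTG, at -46 to -41 and -45 to -40 from the start. Of all 27305 promoter windows of 300 bases, 7.43% held it. With positions counted from 1 at the 5′ end of the CEACAM5 hexamer, CEACAM1 carried G4A, CEACAM7 C3T and CEACAM21 C3A. CEACAM20 carried C1G and C3G, and CEACAM18, which was not measured, carried G4C. In CEACAM3 and CEACAM8 the hexamer fell in a gap of the alignment, and in CEACAM4 a part of it did. The GC box GGGCGG, present in 44.6% of windows, was found on the minus strand of CEACAM1 (-52 to -47), CEACAM8 (-50 to -45), CEACAM21 (-45 to -40) and CEACAM18 (-21 to -16), and on the plus strand of CEACAM6 (-211 to -206). Both strands were searched, and the E-box reads the same on each.

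The spheroids of SW620 had more CEACAM5, CEACAM6 and LYZ signal and somewhat more of the 3 trefoil peptides and AGR2, while PARM1 was far lower and CEACAM1 slightly lower. By limma's moderated test, taking an adjusted p (Benjamini-Hochberg, all 14884 genes) below 0.05 as the threshold, 7 of the 9 measured genes were higher in SW620 and 2 were lower. Over all genes 35.6% passed, 16.0% higher and 19.5% lower. The 2-fold mark was passed by 4 of the 9, against 6.07% of all genes. Their median difference, SW620 minus SW480, was 0.66 on the log2 scale, and that of all genes was 0.013. The arrays of the lines did not overlap for any of the 9 genes, as for 45.7% of all genes. CEACAM6, TFF1 and AGR2 had means below that of the median feature (4.07 on the log2 scale), and of such dim genes 10.5% passed the test. The genes were chosen with earlier results of these arrays known, so these counts describe them and are no independent evidence of a direction. In RNA from whole cultures, a smaller share of expressing cells and less RNA per cell cannot be told apart.

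**Figure D1:**
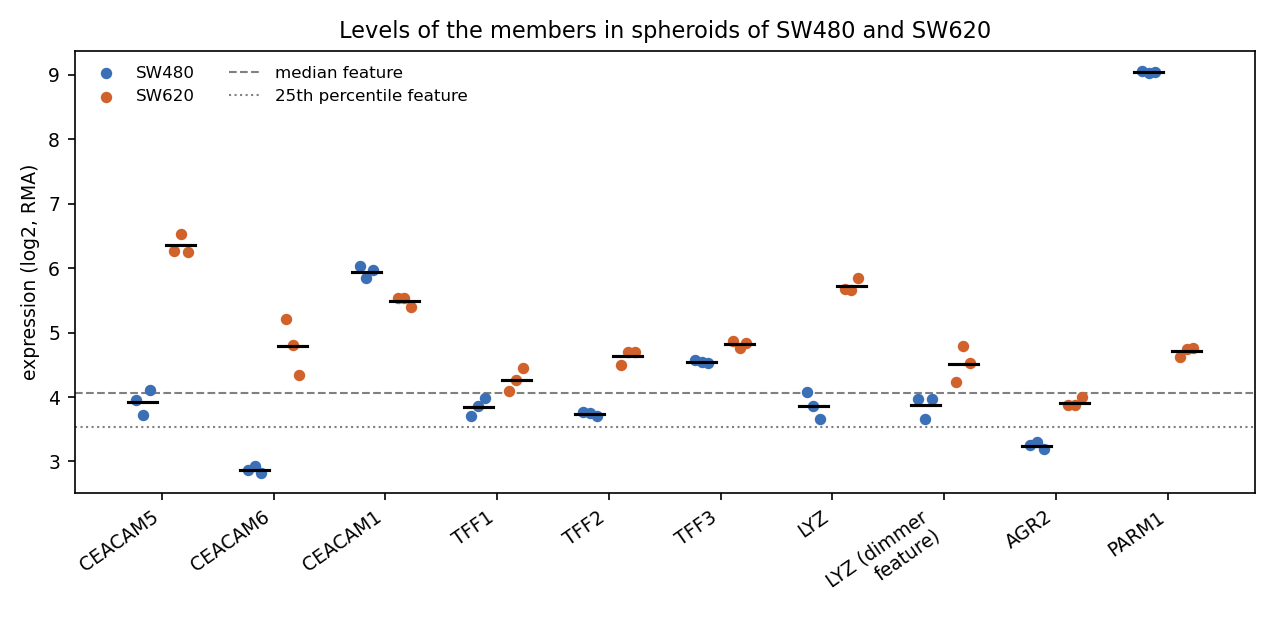
Expression (log2, RMA) of each measured gene on the 3 arrays of SW480 (blue) and of SW620 (orange). Short black bars are means, and grey lines mark the median (4.07) and the 25th percentile (3.53) of the means of all features. PARM1 falls from 9.05 to 4.71, CEACAM5 rises from 3.93 to 6.35, and the arrays of CEACAM6 in SW620 spread the most.

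CEACAM5, the tumour marker of the group, was at 3.96, 3.73 and 4.11 on the SW480 arrays and at 6.27, 6.54 and 6.26 on the SW620 arrays (log2 levels). All 3 SW620 arrays lay above all 3 SW480 arrays, with a gap of 2.15 between the nearest ones. The means were 3.93 ± 0.19 and 6.35 ± 0.16 (SD, n = 3 each), a 5.37-fold rise in SW620 (log2 difference 2.42, 95% interval 2.18 to 2.67, adjusted p = 2.75e-09). Its mean in SW480 was brighter than 45.6% of features and in SW620 brighter than 81.7%. Among genes higher in SW620 it ranked 49 by size of the difference.

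CEACAM6, its GPI-anchored neighbour, was at 2.86, 2.93 and 2.82 in SW480 and at 5.22, 4.81 and 4.34 in SW620 on the log2 scale. The SW480 arrays were near the floor of the measurement, with 1.63% of features dimmer than their mean, while the SW620 arrays spread over 0.87. The means of 2.87 ± 0.054 and 4.79 ± 0.44 (SD, n = 3 each) gave a 3.78-fold rise (difference 1.92, 95% interval 1.56 to 2.27, adjusted p = 9.6e-07). A level so close to the floor can hide a larger fold. Leaving out 1 array at a time gave differences from 1.71 to 2.14.

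CEACAM1, the member that spans the membrane, went the other way. Its levels were 6.03, 5.84 and 5.97 in SW480 and 5.54, 5.54 and 5.40 in SW620. The lines were close but did not overlap. The means were 5.95 ± 0.097 and 5.50 ± 0.081 (SD, n = 3 each), 1.37-fold lower in SW620 (difference -0.45, 95% interval -0.64 to -0.26, adjusted p = 0.00123). The call was lost when a minimum of 1.2-fold was demanded (adjusted p = 0.137).

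The other CEACAM genes and the related pregnancy-specific glycoproteins (PSG), placental proteins of the same gene family, gave the setting of these changes. Of 18 measured relatives 0 rose, 4 fell and 14 did not pass limma's test, and the median difference was -0.012. The 22.2% that fell lie near the 19.5% of all genes. At an unadjusted p below 0.05 there were 0 higher and 5 lower. The gene added there, PSG9 (difference -0.26, adjusted p = 0.0587), named after its values were seen, passed as lower after repeat quantile normalization (0.0329), median centring (0.0476) or cyclic loess (0.032), with a trended variance (0.0485) and without SW480 replicate 1 (-0.36, adjusted p = 0.0144). CEACAM21 was 1.81-fold lower (4.71 ± 0.11 in SW480 and 3.85 ± 0.19 in SW620, n = 3 each), PSG1 1.62-fold lower and PSG5 1.37-fold lower. The call of PSG5 rests on SW480 replicate 3, without which its difference was -0.30 (adjusted p = 0.0655). PSG11, the last of these 4 and named after its values were seen, fell by 0.44, a call lost without SW480 replicate 2 (adjusted p = 0.0505) or SW620 replicate 2 (adjusted p = 0.0587). In both lines 13 of the 18 relatives were dimmer than the median feature, so that a change in them could be seen only poorly.

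CEACAM5 and CEACAM6 are adjacent among the measured genes of chromosome 19, and the measured genes on either side did not pass the test. CEACAM7, next to CEACAM5 and with the most similar upstream window, differed by 0.063 (95% interval -0.13 to 0.26, adjusted p = 0.641). CEACAM3, next to CEACAM6, differed by 0.030 (95% interval -0.15 to 0.21, adjusted p = 0.827). CEACAM4 and LYPD4, further out, differed by -0.089 and 0.047. CEACAM7 was among the dimmest features in both lines (2.96 and 3.02). CEACAM3 (3.91 and 3.94), CEACAM4 (3.62 and 3.53) and LYPD4 (3.27 and 3.31) were also dimmer than the median feature in both lines. A change in these neighbours could thus be seen only poorly. Beside CEACAM1, CEACAM8 differed by 0.062, PSG3 by -0.010 and CXCL17 by -0.17, none past the threshold, and CNFN, an envelope protein of squamous epithelium, was lower by 0.65 (difference -0.65, adjusted p = 0.000354).

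**Figure D2:**
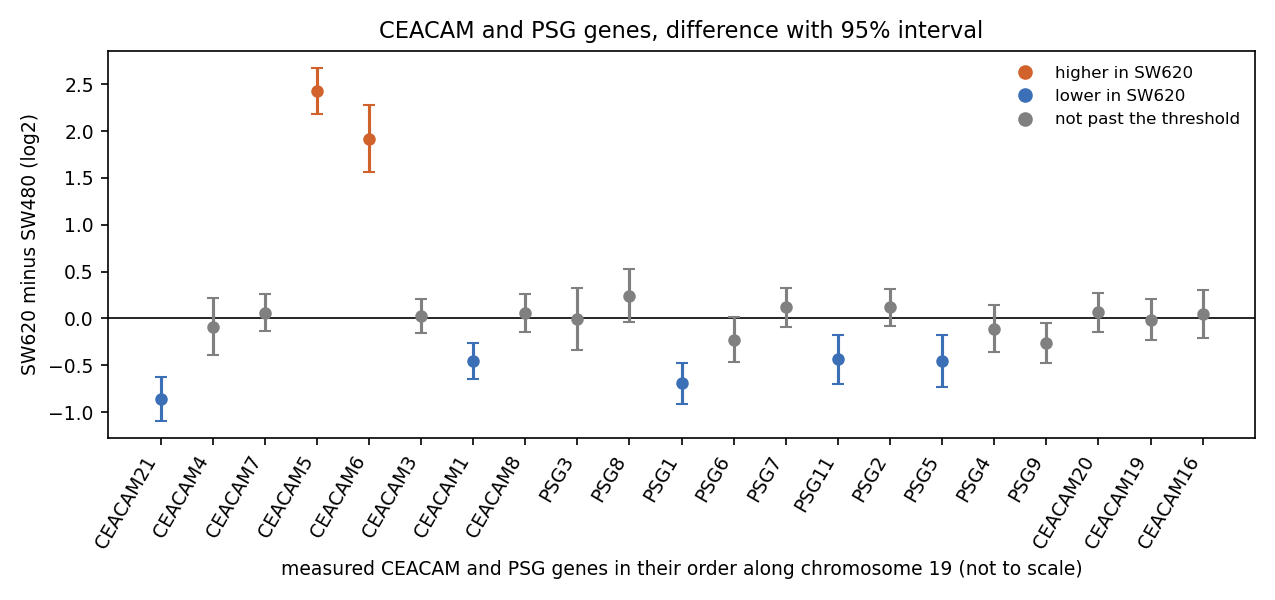
Difference between SW620 and SW480 (log2) with its 95% interval for the measured CEACAM and PSG genes, set in their order along chromosome 19 without scale. CEACAM5 (2.42) and CEACAM6 (1.92) are the pair above 0, between CEACAM7 and CEACAM3 near 0, while CEACAM21, CEACAM1, PSG1, PSG11, PSG5 and PSG9 lie below 0 with their whole intervals.

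All 3 trefoil peptides were higher in SW620, by much less than CEACAM5. TFF2, known from gastric mucous neck cells, was at 3.76, 3.75 and 3.71 in SW480 and at 4.50, 4.70 and 4.70 in SW620. The arrays of each line lay close together, with a gap of 0.74 between the lines. The means were 3.74 ± 0.029 and 4.63 ± 0.11 (SD, n = 3 each), a 1.86-fold rise (95% interval of the log2 difference 0.71 to 1.08, adjusted p = 3.12e-06).

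TFF1, the gastric surface peptide that is also induced by oestrogen in breast cancer cells, was at 3.71, 3.86 and 3.98 in SW480 and at 4.09, 4.27 and 4.44 in SW620. The gap between the lines was 0.11, smaller than the spread of the arrays within either line. The rise was 1.34-fold (means 3.85 ± 0.14 and 4.27 ± 0.17, SD, n = 3 each, difference 0.42, adjusted p = 0.00729). It did not pass when at least 1.2-fold was demanded (adjusted p = 0.355).

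TFF3, the goblet cell peptide of the intestine, was at 4.57, 4.54 and 4.54 in SW480 and at 4.87, 4.76 and 4.84 in SW620. The difference of 0.28 was the smallest of the group and equals 1.21-fold (4.55 ± 0.016 and 4.82 ± 0.061, SD, n = 3 each, adjusted p = 0.0168). Its call depended on single arrays, since the adjusted p was 0.0523 without SW480 replicate 2, 0.0508 without SW480 replicate 3 and 0.0582 without SW620 replicate 1. The 3 trefoil genes follow each other in the order of measured genes on chromosome 21. The genes beyond them did not pass the test, UBASH3A differing by -0.22 (adjusted p = 0.0732), RSPH1 by -0.25 (adjusted p = 0.0541), UMODL1-AS1 by -0.062 and UMODL1, which it overlaps, by -0.048. UBASH3A passed without SW480 replicate 2 (-0.29, adjusted p = 0.0387), and RSPH1 passed without SW620 replicate 1 (-0.30, adjusted p = 0.0441), after repeat quantile normalization (0.0376), median centring (0.0452) or cyclic loess (0.0333), and with features under the 25th percentile left out (0.047).

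LYZ was read by a pair of features that differed in the size of the change. On the brighter one the levels were 4.08, 3.85 and 3.66 in SW480 and 5.68, 5.65 and 5.84 in SW620. That is a gap of 1.57 and a 3.62-fold rise (means 3.87 ± 0.21 and 5.72 ± 0.10, SD, n = 3 each, 95% interval of the log2 difference 1.62 to 2.10, adjusted p = 2.6e-08). On the dimmer one the levels were 3.97, 3.66 and 3.97 in SW480 and 4.23, 4.80 and 4.54 in SW620. The difference there was 0.65 (95% interval 0.29 to 1.01, adjusted p = 0.0225 over all features), and its interval lay below that of the brighter feature. The dimmer feature lost its call without SW480 replicate 2 (0.55, adjusted p = 0.0776), SW620 replicate 2 (0.51, adjusted p = 0.0596) or SW620 replicate 3 (0.64, adjusted p = 0.0625), and with the replicate number as a block (adjusted p = 0.0519). The mean of both features differed by 1.25.

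Of the 4 measured genes of the lysozyme family, LYZ aside, 0 passed limma's test in the comparison of all arrays, and 0 of them had an unadjusted p below 0.05 in it. All 4 were dimmer than the median feature in both lines, and of such dim genes 10.5% passed. LYZL4, a sperm-type lysozyme with the smallest p, differed by -0.21 (adjusted p = 0.156), and without SW480 replicate 1 by -0.33 (adjusted p = 0.0269). YEATS4 and CPM, measured neighbours of LYZ on chromosome 12, differed by 0.084 and -0.054, and neither passed.

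AGR2 was at 3.26, 3.30 and 3.19 in SW480 and at 3.87, 3.87 and 3.99 in SW620, a gap of 0.57. It was 1.59-fold higher in SW620 (3.25 ± 0.057 and 3.91 ± 0.071, SD, n = 3 each, 95% interval of the log2 difference 0.48 to 0.85, adjusted p = 3.27e-05). The mean was brighter than 11.2% of features in SW480 and than 44.5% in SW620, so both levels were low. Its homologue AGR3, the next measured gene on chromosome 7, differed by 0.13 (adjusted p = 0.277). Beyond AGR3, the aryl hydrocarbon receptor gene AHR was lower (difference -0.40, adjusted p = 0.00177). On the other side TSPAN13, a tetraspanin, was lower (difference -0.72, adjusted p = 2.1e-05), and BZW2 differed by -0.18 and did not pass (adjusted p = 0.118). The promoter window of AGR2 held the caudal (CDX) letters TTTATG on the minus strand at -29 to -24, as did 11.0% of all windows at any position. The intestinal factor CDX2 was 2.90-fold lower in SW620, and whether it acts on AGR2 was not tested.

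PARM1, a mucin-like membrane protein first described as androgen-regulated in the prostate, had the largest change of the group. Its SW480 arrays read 9.06, 9.03 and 9.05 and its SW620 arrays 4.63, 4.75 and 4.75, so that the lines were 4.28 apart at the nearest. The means of 9.05 ± 0.017 and 4.71 ± 0.070 (SD, n = 3 each) differed by -4.34 (95% interval -4.52 to -4.16, adjusted p = 9.28e-13), 20.2-fold lower in SW620. It ranked 6 among the genes lower in SW620. In SW480 it was brighter than 96.6% of features and in SW620 than 65.2%. BTC and EREG, growth factor genes beside it on chromosome 4, differed by -0.068 and -0.12, and LINC02483 by 0.12, none past the threshold, while THAP6 rose by 0.35 (adjusted p = 0.0048). Its promoter window held the GC box on the plus strand at -18 to -13.

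**Figure D3:**
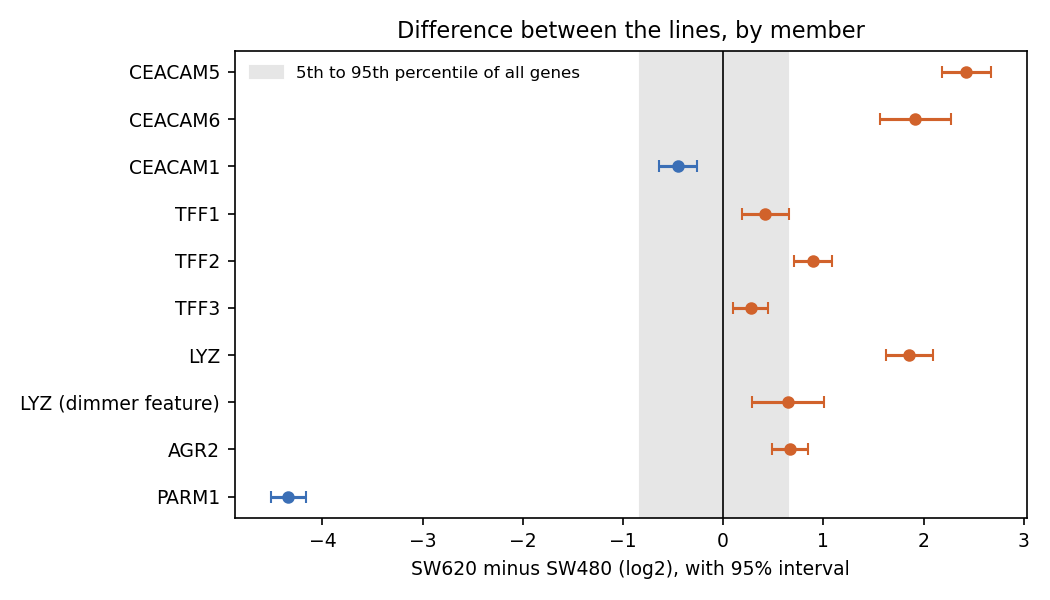
Difference between SW620 and SW480 (log2) with its 95% interval for each measured gene and for both features of LYZ. The grey band spans the 5th to the 95th percentile of all genes (-0.83 to 0.64), and CEACAM5, CEACAM6, TFF2 and the brighter LYZ feature lie above it with their whole intervals while PARM1 lies below it.

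The forkhead letters TGTTTAC and TATTTAC and the TCF/LEF letters CTTTGAT were not in the windows of CEACAM1, CEACAM5, CEACAM6, AGR2 or PARM1. Only these exact letters were searched, so other forms of such sites may be present. The 3 strings were in 3.41%, 2.77% and 2.64% of all windows. TFF1, TFF2, TFF3 and LYZ had no entry in the promoter table.

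**Figure D4:**
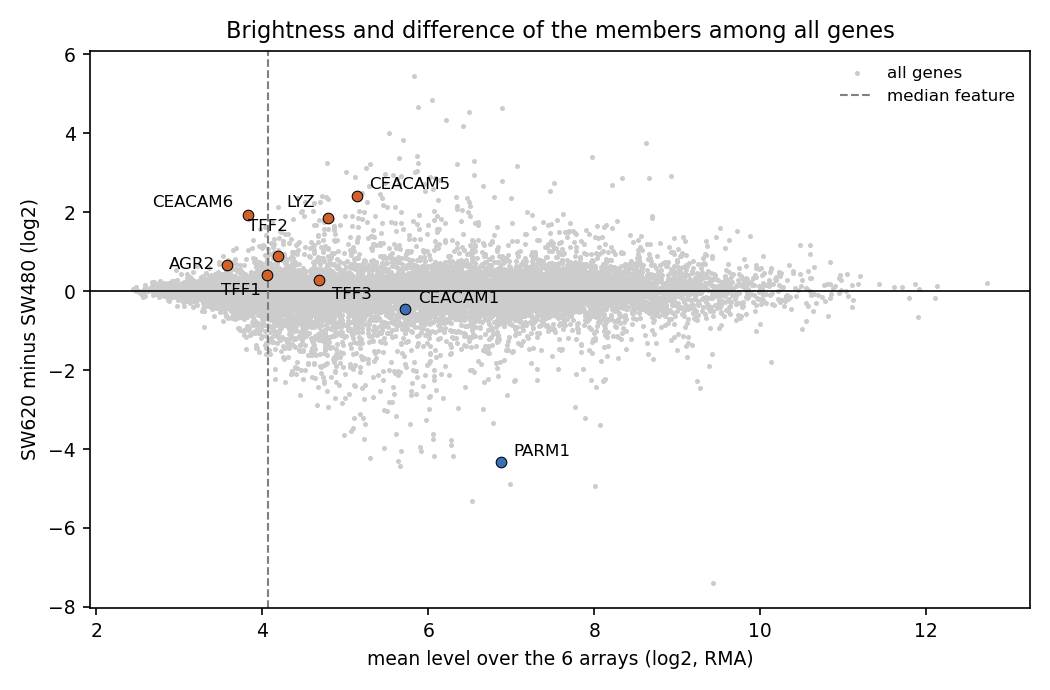
Mean level over the 6 arrays (log2, RMA) against the difference between SW620 and SW480 (log2) for all 14884 genes in grey and the 9 measured genes in colour. The dashed line marks the median feature (4.07), near which the trefoil genes, CEACAM6 and AGR2 lie, whereas PARM1 is bright and far below 0.

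Most other products of mucus-secreting cells did not pass the test. Of 15 measured goblet cell products and enzymes of mucin glycosylation 0 rose, 3 fell and 12 did not pass limma's test, with a median difference of 0.0004. The share that fell (20%) is near that of all genes (19.5%). None of them was higher at an unadjusted p below 0.05 with all arrays. C1GALT1C1, named after its values were seen, differed by 0.20 (adjusted p = 0.143). It passed as higher without SW480 replicate 1 (0.29, adjusted p = 0.042). The 3 that fell were SYTL2, which tethers secretory granules (2.32-fold lower), KLK1, a tissue kallikrein (2.07-fold lower), and REP15, a partner of a recycling GTPase (1.58-fold lower). The classical goblet cell products FCGBP, CLCA1, ZG16 and RETNLB, named after their values were seen, had means from 3.36 to 3.78 in both lines, below the median feature. Of 14 measured transcription factors of secretory and endodermal cells 3 rose and 1 fell (28.6%, against 35.6% of all genes). FOXA2 rose 4.49-fold, GATA6 2.44-fold and FOXA3, a factor of goblet cells, 1.85-fold. The gene that fell was FOXA1, 1.45-fold lower, which was chosen after its value was seen. The median of this list was -0.023.

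Of 15 measured Paneth cell and antimicrobial genes 1 rose and 2 fell (20%, against 35.6% of all genes), with a median of 0.047. NOTUM, an enzyme that inactivates Wnt proteins, rose 1.51-fold. The pattern receptor NOD2 was 1.37-fold lower and the protease inhibitor SLPI 1.32-fold lower. Of these 15 genes 11 were below the median feature in both lines.

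Of 6 measured mucin-like surface proteins and mucins 1 rose and 3 fell (66.7%, against 35.6% of all genes). None of the numbered MUC genes on the list had a feature named in the annotation used here. MUCL1, a small mucin-like secreted protein, was 15.6-fold lower in SW620 (7.45 and 3.49). PODXL2, a sialomucin that binds selectins, was 2.64-fold lower. SPN, the leukocyte sialomucin CD43, rose 4.78-fold (3.56 and 5.82). The remaining gene that fell was PODXL, 1.80-fold lower and likewise chosen after its value was seen.

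Among 17 other GPI-anchored surface proteins, 5 rose and 4 fell (52.9%, against 35.6% of all genes), with a median of 0.0006. CD24 rose 7.59-fold, the folate receptor FOLR1 5.15-fold and CD109, which binds TGF-beta, 3.08-fold on the brighter of its features. The mean of the features of CD109 differed by 0.90, in place of 1.62. MSLN, the mesothelial antigen mesothelin, rose 1.96-fold, and the prion protein PRNP 1.30-fold. The falls were those of RECK, an inhibitor of matrix metalloproteinases (2.29-fold), BST2, the antiviral protein tetherin (1.86-fold), LYPD3 (1.36-fold) and the glypican GPC1 (1.35-fold). MSLN, PRNP and the genes that fell were named after their values were seen.

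The protein disulfide isomerase family, to which AGR2 belongs, had 2 rises and 0 falls in limma's test among 9 measured genes (2 and 1 at an unadjusted p below 0.05). The share that passed was 22.2%, against 35.6% of all genes, and both rises rest on single arrays. ERP44, which retains proteins in the early secretory pathway and was named after its values were seen, differed by -0.22 (adjusted p = 0.0643). It passed as lower after repeat quantile normalization (0.0429) or cyclic loess (0.0245), among genes above the median feature (0.0405) and with a trended variance (0.0114). ERP27 differed by 0.28, with an adjusted p up to 0.118 when an array was left out (without SW480 replicate 2). The arrays whose loss ended its call were replicates 1 and 2 of SW480 and replicates 1 and 2 of SW620. TXNDC11 differed by 0.26, and its call was lost without SW480 replicate 1 (adjusted p = 0.0907), SW480 replicate 2 (0.057) or SW620 replicate 2 (0.0858). Of 14 genes of the endoplasmic reticulum chaperones and the unfolded protein response 1 rose and 5 fell, with a median of -0.17. These are 42.9% of the list, against 35.6% of all genes. EIF2AK3, the stress kinase PERK, was 1.56-fold lower, and SEC61B, a subunit of the translocon, 1.23-fold lower. The falls of ERN1, the stress sensor IRE1, and SEL1L, an adaptor of protein degradation, both named after their values were seen, were lost without SW480 replicate 2 (adjusted p = 0.0956 and 0.0786) or SW480 replicate 3 (0.0734 and 0.0700). ERN1 was also lost without SW480 replicate 1, SW620 replicate 2 or SW620 replicate 3, and SEL1L without SW620 replicate 1. SDF2L1 rose 1.30-fold, a call lost without SW480 replicate 2 (adjusted p = 0.0725) or SW620 replicate 3 (0.0523). Of 11 known partners of CEACAM1, trefoil peptides and AGR2, 8 were measured. Of these 8, 0 rose and 2 fell in limma's test, as at an unadjusted p below 0.05. The share that passed was 25%, against 35.6% of all genes. In both lines 6 of the 8 were dimmer than the median feature, so that a change in them could be seen only poorly. Those that fell were CXCR4, a chemokine receptor through which TFF2 is reported to signal (12.2-fold lower), and LYPD3, a receptor reported for AGR2 (1.36-fold lower). The call of LYPD3 was lost when a minimum of 1.2-fold was demanded (adjusted p = 0.21).

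**Figure D5:**
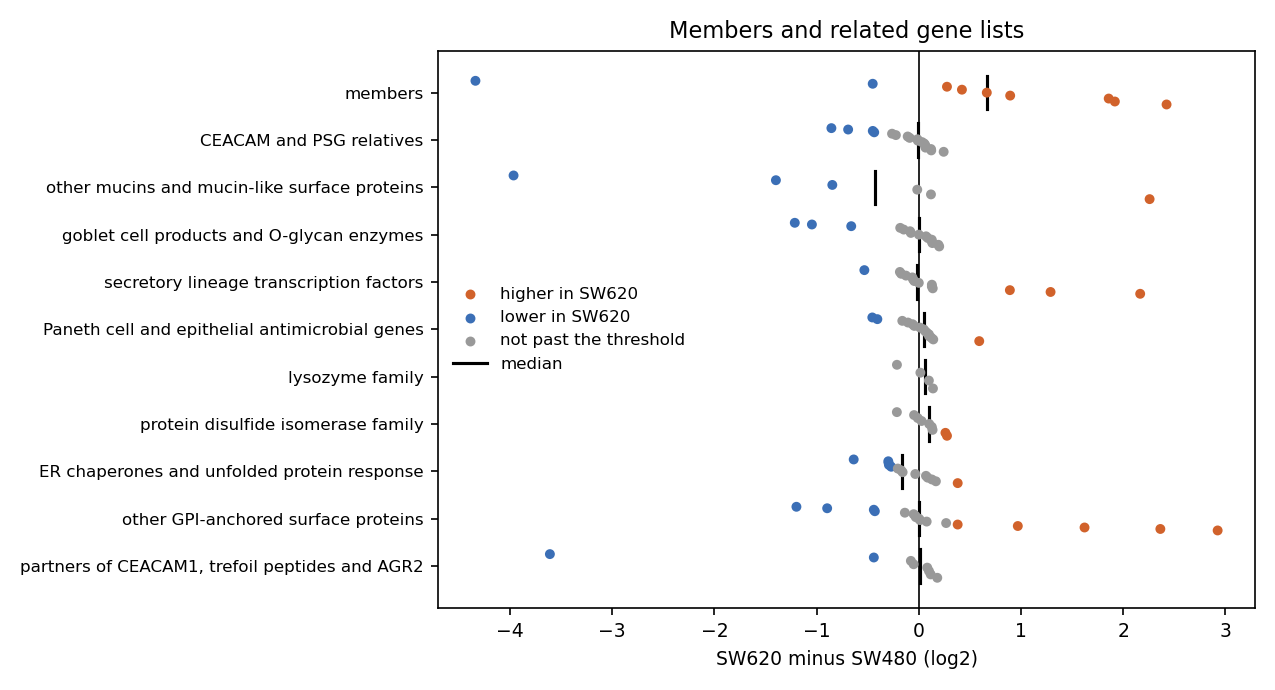
Difference between SW620 and SW480 (log2) for each measured gene of the group (top row) and of the related lists. Points are genes, coloured by direction where limma's adjusted p is below 0.05, and black bars are medians. The median of the group is 0.66, and those of the related lists run from -0.43 to 0.10.

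The genes whose differences over the 6 arrays were most like that of CEACAM5, by Euclidean distance after subtracting each gene's SW480 mean, were MROCKI (distance 0.323), TMT1A (0.338) and FOLR1 (0.342). They rose by 2.49, 2.54 and 2.36 on the log2 scale. For PARM1 they were KRT75 (0.22), PASD1 (0.23) and EPAS1 (0.306), with differences of -4.30, -4.42 and -4.24. With only these lines, such likeness mostly states a difference of similar size.

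Markers of the labelled tissue and of other cells were read beside these genes. Of 9 measured epithelial markers 3 rose and 1 fell (44.4%, against 35.6% of all genes). KRT8 (6.40 and 6.80), KRT19 (7.61 and 8.11) and VIL1 (8.76 and 9.38) were higher in SW620, and CDX2 was lower (6.22 and 4.68). EPCAM (9.71 in SW480 and 9.61 in SW620) and KRT18 (11.6 and 11.7) were bright in both lines, while the differentiation marker KRT20 (4.01 and 4.06) and CDX1 (3.84 and 3.80) were below the median feature. Of 8 measured leukocyte and macrophage markers, which matter for LYZ and CEACAM1, 2 rose and 1 fell (37.5%, near the share of all genes). Their summed linear level was 228 to 234.1 on the SW480 arrays and 795.6 to 803.1 on the SW620 arrays. Without LCP1, which rose 25.1-fold, the sums were 204.4 to 211.7 and 204.5 to 209.95 for the other 7. Of the rest, CD68, a lysosomal protein of macrophages, was higher (5.92 and 6.35, adjusted p = 0.00112), LAPTM5, a lysosomal protein of blood cells, was lower (6.25 and 5.84, adjusted p = 0.00132), and CSF1R, the macrophage growth factor receptor, was above the median feature in both lines and did not pass (difference 0.063). CD163, MPO and CD14 had means of 3.34, 3.39 and 3.65 in SW480 and 3.28, 3.31 and 3.65 in SW620, below the median feature. Of 3 measured fibroblast markers 1, LUM, rose 9.34-fold (33.3% passed, against 35.6% of all genes). DCN was below the 25th percentile feature (3.53) and differed by 0.18 (limma's unadjusted p = 0.047, adjusted p = 0.11). THY1 (4.43 and 4.40) did not pass. Of 6 endothelial markers 0 passed limma's test, adjusted or not. In both lines 5 of these 6 were dimmer than the median feature, and of such dim genes 10.5% passed.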

How the data were processed

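Biotin-labelled cDNA from total RNA was hybridised to Affymetrix arrays, per the labels' protocols. The authors deposited log2 expression values. The submitters' processing notes name Partek and RMA (settings not given in the sources used here). Base 2 was inferred from the values, which lie between 1.99 and 13.9. Neither detection calls nor intensities were used here. Because of RMA's background step, folds of dim genes can come out too small.

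The platform annotation gave 1 gene symbol to 16098 features, several to 0 and none here to 37518. All 16098 matched RefSeq (GRCh38.p14), which gave names and gene order. The brightest feature stood for a gene, without a filter. For LYZ the dimmer feature was taken from a fit of all features. The test was limma's (version 3.58.1, R 4.3.3, lmFit and eBayes), two-sided and without covariates. Tested on simulated data of all 14884 genes, it recovered 30 of 50 log2 shifts of 0.5, 48 of 50 of 1, 49 of 50 of 2 and 50 of 50 of 3, with 6 false among 183 calls. Only these few genes were shifted, whereas 35.6% of genes were called in the data, so such rates may not carry over. Depth does not apply to arrays, and their number limits the precision. Pearson's r across features was at least 0.988 within a line and at most 0.965 between lines (features are not independent).

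The members, lists and tests were chosen with earlier results of these data known. Named were the 9 measured members, up to 3 called genes per list with the largest difference (or the smallest p where none passed), 2 measured neighbours on each side of a member, microRNA genes left unnamed, and 3 most similar genes each for the largest rise and fall. Promoter windows were aligned with Biopython 1.88 (global, match 1, mismatch -1, gap opening -3, extension -0.5). Of the 10 members 6 had a window.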

Additional observations from a re-analysis of the deposited data

How the results depend on the processing

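Of the 9 measured genes, CEACAM5, CEACAM6, TFF2, LYZ (brighter feature), AGR2 and PARM1 kept their direction and stayed past the threshold under all alternatives run for them, which were median or 75th percentile centring, quantile normalization once more, cyclic loess, filters on dim features, a trended and robust variance, the mean of all features, all features tested separately, the replicate block, treat with a minimum of 1.2-fold, a threshold of 0.01 and leaving out each array. No difference of the 9 genes changed sign. LYZ ran from 1.25 (mean of its features) to 1.97. Treat lowered the calls over all genes from 5293 to 2465 (1005 higher and 1460 lower) and left 1 member lower. It ended the calls of CEACAM1 (-0.45, adjusted p = 0.137), TFF1 (0.42, 0.355), TFF3 (0.28, 1) and the dimmer LYZ feature (0.65, 0.176), and at 0.01 TFF3 (0.28, 0.0168) and the dimmer LYZ feature (0.65, 0.0225) were lost. With arrays left out TFF3 ran from 0.25 to 0.31 and the dimmer LYZ feature from 0.51 to 0.80, with calls lost as given above. Only genes above the median feature left 4 members higher, since CEACAM6, TFF1 and AGR2 are then not tested. The split of all genes into 2388 higher and 2905 lower became 2686 and 2685 with the arrays set to a common 75th percentile. The replicate numbers did not pair the arrays: deviations of same-numbered arrays correlated at 0.021, -0.011 and -0.0035, and 2 of 6 arrays correlated best with their own number. The replicate block gave 5215 calls and lost the dimmer LYZ feature (0.65, adjusted p = 0.0519). Genes outside the group kept their call or lack of one in 2722 cases, lost the call in 60 and gained it in 27. Among them, the direction of differences that passed in neither setting was not compared. Signal near the floor limits the folds of CEACAM6 and AGR2 in SW480. TFF1, TFF2, LYZ and CEACAM5 were also dimmer than the median feature in SW480, so their folds too may come out too small.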
